A study of Homo sapiens with 48 samples.

Results

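The genes described here are those whose response to angiotensin II (AII) and EGF given together turned round between 6 h and 24 h. They were chosen by a rule on measured values: a protein-coding gene with a mean of at least 5 CPM (counts scaled to a common library total) in the control cells of both times, whose joint response had opposite signs at 6 h and 24 h and a size of at least 0.4 at each. The joint response is the log2 ratio of the mean CPM + 0.5 under AII+EGF to that in control. The rule found 131 genes among 10545 protein-coding genes above the abundance minimum (1.24%), of 60610 genes listed in all. Of these, 83 were lower than control at 6 h and higher at 24 h (the down-then-up genes), and 48 were higher at 6 h and lower at 24 h (the up-then-down genes). Since the joint and control values chose the genes, those values are a description, and tests were run only between AII and EGF libraries, which the rule did not use.

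Poly(A) RNA was sequenced from a clone of HEK293, a human embryonic kidney line, with stable expression of AT1R, the type 1 angiotensin II receptor. All groups come from this 1 clone, which was selected with puromycin. Losartan, an AT1R blocker, was present then to keep AII left in the serum from activating AT1R. EGFR, the EGF receptor, is the cells' own. In serum-free medium the cells received no stimulus (control), 1 nM AII, 10 µg/L EGF or both (AII+EGF), for 6 h or 24 h, with 6 libraries in each of the 8 groups. Nothing states that the libraries came from separate cultures, so p-values cover only the spread between these libraries. In bulk RNA, fewer cells with a transcript and less of it per cell cannot be told apart.

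AT1R is a Gq-coupled receptor and EGFR a receptor tyrosine kinase. Both activate the ERK pathway, and EGFR activates the PI3K-AKT pathway, through which AKT keeps FOXO transcription factors out of the nucleus. Growth factors also raise glucose uptake, glycolysis and the making of ribosomes. TXNIP binds thioredoxin and restrains glucose uptake, DEPP1 is a FOXO target, and SLC2A1 encodes the glucose transporter GLUT1. TXNIP and DEPP1 were among the down-then-up genes and SLC2A1 among the up-then-down genes.

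A promoter from RefSeq (GRCh38.p14) was at hand for 71 of 83 down-then-up and 35 of 48 up-then-down genes, and the 250 bases before the transcription start were searched on both strands. The promoters of TXNIP (chr1:145996580-145996829, minus strand) and DEPP1 (chr10:44978810-44979059, minus strand) are shown because these genes had the deepest fall at 6 h among those ranked first. Capitals mark CACGAG, which makes up the paired carbohydrate response element of TXNIP, and GTAAACA, the core of a FOXO site, and CTCGTG is CACGAG on the other strand.
TXNIP: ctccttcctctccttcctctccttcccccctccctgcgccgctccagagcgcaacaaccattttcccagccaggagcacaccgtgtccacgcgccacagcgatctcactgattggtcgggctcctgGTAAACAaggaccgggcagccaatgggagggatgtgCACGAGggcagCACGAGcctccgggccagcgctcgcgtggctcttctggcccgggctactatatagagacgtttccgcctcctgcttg
DEPP1: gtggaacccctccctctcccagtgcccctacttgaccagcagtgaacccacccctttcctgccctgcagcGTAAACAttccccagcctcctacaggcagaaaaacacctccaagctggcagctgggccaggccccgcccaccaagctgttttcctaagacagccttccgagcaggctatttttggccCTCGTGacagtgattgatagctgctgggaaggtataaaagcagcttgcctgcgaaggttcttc

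TXNIP held CACGAG at 88 to 83 and at 77 to 72 bases before the start and GTAAACA at 124 to 118 bases, and DEPP1 held CACGAG at 63 to 58 bases and GTAAACA at 180 to 174 bases. CACGAG alone stood in 7.04% of the down-then-up, 2.86% of the up-then-down and 7.38% of the 8632 promoters of genes above the abundance minimum. The pair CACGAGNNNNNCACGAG stood in 2 of the 8632 promoters (0.0232%), that of TXNIP among them. GTAAACA stood in 1.96% of the 8632 promoters, in 2 down-then-up promoters (2.82%), which were those of TXNIP and DEPP1, and in 2 up-then-down promoters (5.71%). A match of letters is a description and not a site.

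The promoters of the histone genes H2BC21 (chr1:149886683-149886932, minus strand) and H2AC18 (chr1:149842751-149843000, minus strand) are shown for the histone members, of which H2BC21, H2AC18 and H2AC19 ranked next after SCARA5 among the down-then-up genes. Capitals mark CCAAT and TATAAA, and ATTGG and TTTATA are the same motifs on the other strand.
H2BC21: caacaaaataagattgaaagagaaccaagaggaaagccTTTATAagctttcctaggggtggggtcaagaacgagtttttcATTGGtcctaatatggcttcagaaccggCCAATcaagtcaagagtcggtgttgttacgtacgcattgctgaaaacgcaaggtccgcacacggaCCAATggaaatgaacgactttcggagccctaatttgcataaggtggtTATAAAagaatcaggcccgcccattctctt
H2AC18: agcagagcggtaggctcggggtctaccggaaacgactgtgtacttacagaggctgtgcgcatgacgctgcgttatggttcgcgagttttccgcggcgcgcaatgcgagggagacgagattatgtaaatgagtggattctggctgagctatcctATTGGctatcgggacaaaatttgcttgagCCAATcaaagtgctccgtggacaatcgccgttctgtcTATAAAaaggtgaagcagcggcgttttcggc

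All 4 histone members held CCAAT and 3 of 4 held TATAAA, against 35.9% and 4.66% of the 8632 promoters. The promoter of BNIP3 (chr10:131981924-131982173, minus strand), a mitophagy receptor and target of the hypoxia factor HIF1, is shown for the up-then-down genes. Capitals mark ACGTG and GCGTG, the core of the hypoxia response element, and CACGT and CACGC are the same letters on the other strand, so that CACGTG counts on both strands.
BNIP3: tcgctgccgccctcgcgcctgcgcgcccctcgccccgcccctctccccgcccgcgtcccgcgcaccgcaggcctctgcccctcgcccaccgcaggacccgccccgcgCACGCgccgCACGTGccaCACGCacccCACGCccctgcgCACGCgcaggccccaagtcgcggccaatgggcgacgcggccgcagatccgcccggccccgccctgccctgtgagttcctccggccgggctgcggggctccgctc

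BNIP3 had the most matches of the 6 listed HIF targets with a promoter, and these letters stood in 3 of the 6 (50%), with none in PDK1, SLC2A1 and TMEM45A. ACGTG or GCGTG stood in 51.4% of the up-then-down, 54.9% of the down-then-up and 59.5% of the 8632 promoters. In the same order, CACGTG stood in 5.71%, 8.45% and 9.24%, CCAAT in 42.9%, 38% and 35.9%, and GGGCGG in 71.4%, 78.9% and 70.2%. TATAAA stood in 11.4%, 8.45% and 4.66%, and TGACGTCA in 0%, 2.82% and 3.24%. The shares in both sets of genes differed little from those of all promoters, apart from the small counts behind TATAAA and GTAAACA.

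Library totals ranged from 17.8 to 36.2 M counts (median 22.8 M). The HEK293 markers NEFM (median 4510 CPM) and VIM (272 CPM) were high and PAX2 (1.28 CPM) was low, and the leucocyte markers PTPRC and CD3E had medians of 0 CPM. Of 1128 pairs of libraries, 4 differed by less than sampling noise (chi-square per degree of freedom 0.397 to 0.505, next pair 2.02). These were control 6 h replicate 1 with EGF 24 h replicate 2, control 6 h replicate 2 with AII 24 h replicate 4, EGF 6 h replicate 1 with AII+EGF 6 h replicate 4, and EGF 6 h replicates 2 and 6, which an alternative counted as 1 sample. On a scale from 0 (AII 6 h) to 1 (AII+EGF 6 h) over 336 genes, the library labelled AII 6 h replicate 6 stood at 0.86 and the library labelled AII+EGF 6 h replicate 6 at -0.016. The rule left out control 6 h replicates 1 and 2 and AII+EGF 6 h replicates 4 and 6, and so used 4 libraries in each of these groups and 6 in each 24 h group. Results are given below also without the 10 doubted libraries (8 of the pairs and these replicates 6). Replicate numbers follow the order of deposition.

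Under AII+EGF the down-then-up genes went from below control to above it. Their joint response had a median of -0.69 at 6 h (-1.92 to -0.40) and of 0.50 at 24 h (0.40 to 1.105). The up-then-down genes had a median of 0.61 at 6 h (0.41 to 2.71) and of -0.50 at 24 h (-0.86 to -0.40). A size over 1 was reached at 6 h by 14 down-then-up and 7 up-then-down genes, and at 24 h by 3 and 0. The medians of all 10545 genes were -0.08 and -0.02, and with libraries scaled by TMM factors in place of totals they were 0.004 and -0.008. The counts that follow use library totals. Among the 10545 genes, 2353 were lower and 1314 higher by at least 0.4 at 6 h, and 620 were lower and 464 higher at 24 h. Both responses passed the minimum in the same direction in 190 genes (higher) and 208 genes (lower).

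**Figure D1:**
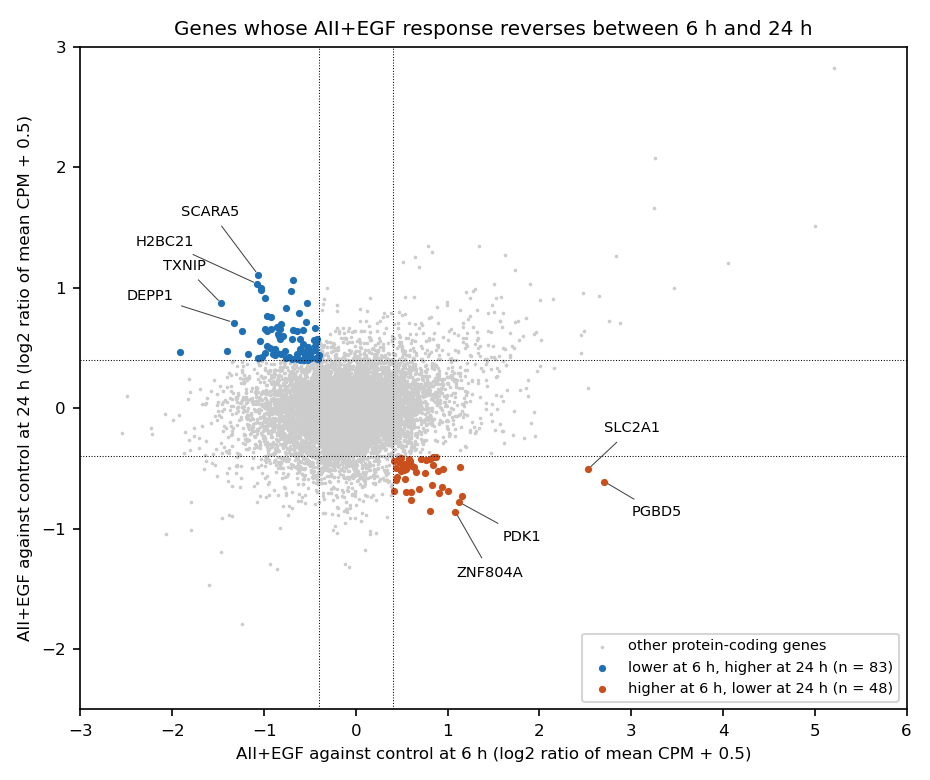
Joint response (log2 ratio of mean CPM + 0.5, AII+EGF to control) at 6 h on the x axis and at 24 h on the y axis for 10545 protein-coding genes (points). The 83 down-then-up genes lie at the upper left and the 48 up-then-down genes at the lower right, where SLC2A1 and PGBD5 stand apart with 2.53 and 2.71 at 6 h.

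From 6 h to 24 h the down-then-up genes shifted by a median of 1.69 under AII+EGF (log2 scale, 83 of 83 higher) and of 0.37 in control (69 of 83 higher). The up-then-down genes shifted by a median of -1.17 under AII+EGF (46 of 48 lower) and of 0.11 in control (29 higher, 19 lower). Both shifts come from libraries that the rule used, and the rule sets a minimum for the difference between them. Their sizes and directions are therefore a description of the chosen genes and not a test. Control moved against AII+EGF in 14 down-then-up and 27 up-then-down genes. In 2 up-then-down genes, STC1 and TMEM45A, AII+EGF also rose (0.29 and 0.20) and control rose more (1.98 and 1.39). In PDK1, BNIP3 and PLOD2, too, the shift of control (1.21, 1.06 and 0.90) was larger in size than that of AII+EGF (-0.70, -0.41 and -0.12).

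The levels per library follow the same course. For AII+EGF and control, the rule had used all 24 h libraries and 4 libraries of each 6 h group. The choice of genes thus favoured a separation of these groups, which is a description and not a test. For each library, the median over the genes of log2(CPM + 0.5) was taken relative to the mean of the 8 groups. For the down-then-up genes under AII+EGF it was -1.04 to -0.36 at 6 h (median -0.85) and 0.63 to 0.82 at 24 h (median 0.78). In control it was -0.25 to 0.37 at 6 h (median -0.12) and 0.01 to 0.39 at 24 h (median 0.19). At 24 h the AII+EGF libraries lay above all control libraries, and at 6 h all lay below them. Control 6 h replicates 1 and 2, each nearly identical to a 24 h library, were the 2 highest controls at 6 h (0.37 and 0.16), and AII+EGF 6 h replicate 6 was the highest of its group.

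For the up-then-down genes the level under AII+EGF was 0.14 to 0.70 at 6 h (median 0.56) and -0.80 to -0.32 at 24 h (median -0.58). In control it was -0.23 to 0.09 (median -0.04) and -0.31 to 0.17 (median -0.02). AII+EGF and control did not overlap at either time, which the choice of genes again favoured, and AII+EGF 6 h replicate 6 was the lowest of its group. The medians of AII and EGF lay between those of control and AII+EGF at both times.

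**Figure D2:**
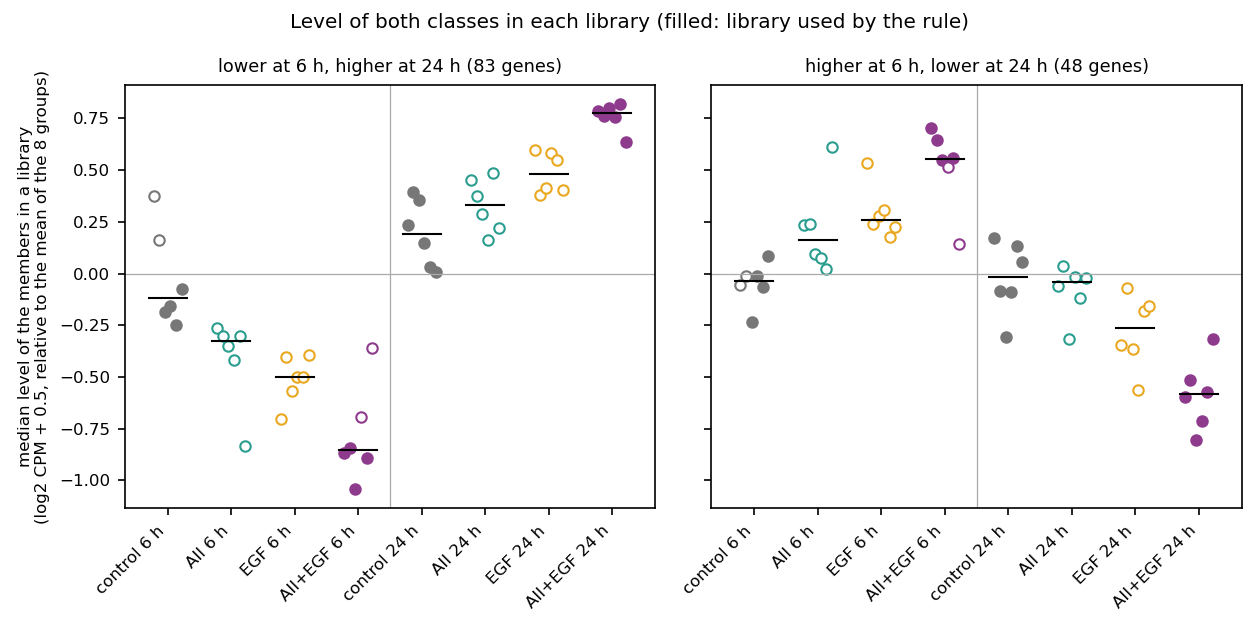
Median level of the 83 down-then-up and the 48 up-then-down genes in each of the 48 libraries (points), as log2(CPM + 0.5) relative to the mean of the 8 groups, with the median of 6 libraries as a line and filled points for the libraries that the rule used. AII+EGF has the lowest median at 6 h (-0.85) and the highest at 24 h (0.78) for the down-then-up genes, and the reverse (0.56 and -0.58) for the up-then-down genes.

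The 6 h libraries labelled AII+EGF and control that the rule left out were compared in the same way, but their labels are in doubt. The mean of AII+EGF replicates 4 and 6 lay below that of control replicates 1 and 2 in 81 of 83 down-then-up genes (48.2% of the 10545 genes were lower), with a median log2 ratio of -0.71. It lay above it in 39 of 48 up-then-down genes (51.8% of the 10545 genes were higher), with a median of 0.37. The 9 that were lower included the HIF targets PDK1 (-0.24), STC1 (-1.19), BNIP3 (-0.27), PLOD2 (-0.21) and TMEM45A (-0.56), while SLC2A1 (1.14) and KDM3A (0.21) were higher. Taken alone, AII+EGF replicate 4 was lower than these controls in 82 of 83 down-then-up genes (54.2%, median -0.88) and higher in 44 of 48 up-then-down genes (45.8%, median 0.56). AII+EGF replicate 6 was lower in 79 of 83 (45.7%, median -0.57) and higher in 31 of 48 (54.3%, median 0.28). All 4 libraries are among the 10 doubted ones: the 2 controls are nearly identical to 24 h libraries, replicate 4 to an EGF 6 h library, and replicate 6 stood with AII on the scale above. These counts may therefore not describe AII+EGF against control at 6 h, and they are no check of the joint response.

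Replicate 6 of each group, which belongs to the last run of 8 titles, was also looked at alone. At 24 h its AII+EGF library lay above its control in 80 of 83 down-then-up genes (52.1% of the 10545 genes, median 0.57) and below it in 40 of 48 up-then-down genes (47.9%, median -0.32). The 3 down-then-up exceptions were the histone genes H2BC21, H2AC18 and H2AC19. The 8 up-then-down exceptions included the HIF targets PDK1 (0.20), STC1 (0.62), BNIP3 (0.32), PLOD2 (0.07) and TMEM45A (0.40), while SLC2A1 (-0.08) and KDM3A (-0.20) kept their direction. The other 5 replicates had medians of 0.50 and -0.55. Both libraries had been used by the rule. Without the replicate 6 libraries the rule found 151 genes, of which 113 were among the 131.

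The single stimuli are set beside the joint response as values only, since they share its control libraries. At 6 h the down-then-up genes had a median log2 ratio to control of -0.21 under AII and -0.33 under EGF, and at 24 h of 0.13 and 0.27. A fall of at least 0.4 at 6 h was seen in 10 of 83 genes under AII (1.7% of the 10545 genes) and in 32 under EGF (6.66%). A rise of that size at 24 h was seen in 1 gene under AII (0.0569%) and in 20 under EGF (1.09%). At 6 h the medians of the 10545 genes were 0.007 under AII and -0.057 under EGF. The edgeR fit described below scales libraries differently and uses all control libraries, and its medians at 6 h were -0.35 under AII and -0.38 under EGF. Compared directly at 6 h in that fit, the median of EGF against AII was -0.02, with 39 of 83 genes higher and 44 lower under EGF.

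The up-then-down genes had medians of 0.28 under AII and 0.33 under EGF at 6 h and of -0.08 and -0.22 at 24 h. A rise of at least 0.4 at 6 h was seen in 12 of 48 genes under AII (4.14%) and in 15 under EGF (4.95%). A fall of that size at 24 h was seen in 0 genes under AII (0.00948%) and in 3 under EGF (0.673%). In the edgeR fit the medians at 6 h were 0.28 under AII and 0.47 under EGF. The direct median of EGF against AII at 6 h in that fit was 0.17, with 37 of 48 genes higher under EGF.

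The change from 6 h to 24 h under each single stimulus was tested with edgeR's quasi-likelihood test over 19337 genes. Calls needed an adjusted p under 0.01, a 1.5-fold change or more and, in whichever group was higher, a mean over 5 CPM. All 131 genes passed the filter on low counts. Under AII, 47 of 83 down-then-up genes were called higher at 24 h (5.89% of all tested genes) and 0 lower (3.18%), with a median log2 fold change of 0.72 and with 66 higher and 1 lower at an unadjusted p under 0.05. Under EGF, 55 were called higher (7.04%) and 0 lower (7.26%), with a median of 0.87 and with 67 higher and 2 lower at an unadjusted p under 0.05. At that unadjusted p, 5192 of all 19337 tested genes were higher and 4282 lower under AII, and 5715 and 5208 under EGF. Of the 10545 genes, 6.9% were called higher under AII and 8.76% under EGF, and their median was -0.11 under each stimulus.

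Of the 48 up-then-down genes, 16 were called lower under AII and 1 (TMEM45A) higher, with a median of -0.39. Under EGF 26 were called lower and 0 higher, with a median of -0.73 and with 34 lower and 3 higher at an unadjusted p under 0.05. At that unadjusted p, 5208 of all 19337 tested genes were lower and 5715 higher under EGF. Among the 10545 genes, 5.35% were called lower under AII and 12% under EGF. Without the 10 doubted libraries, 44 down-then-up genes were called higher under AII and 56 under EGF. Of the up-then-down genes, 13 and 27 were then called lower, and 2 and 0 higher. The shares of all genes given above are those of the main fit. The titles fall into runs of 8, of which 4 hold libraries of 1 time only and 2 hold 1 library of every group, and the labels do not say what a run is. With the run as a term of the model, a fit added after seeing the data, 44 and 50 down-then-up genes were called higher and 16 and 25 up-then-down genes lower. The calls lost were, among the genes named below, those of H1-2 (0.32) and TMEM45A (0.52) under AII and of H2BC21 (0.42), H1-2 (0.46), CDT1 (0.51) and ZNF804A (-0.44) under EGF. These changes over time include whatever change unstimulated cells showed, which for control was described above.

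The libraries themselves separated in a like number of genes. All 6 AII libraries at 24 h lay above all 6 at 6 h in 45 down-then-up genes (11.5% of all tested genes) and below in 1 (5.29%). For EGF this was so in 67 (21.5%) and 0 (7.57%). The up-then-down genes separated downwards in 13 under AII and 25 under EGF, and upwards in 0 and 1. Within replicate 6 alone, 81 of 83 down-then-up genes were higher at 24 h under AII (54% of the 10545 genes) and 79 under EGF (61.8%), and 39 (46%) and 37 (38.2%) of 48 up-then-down genes were lower. The 6 h library behind the AII counts is the one that stood at 0.86 toward AII+EGF, so these counts may describe AII+EGF at 6 h.

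**Figure D3:**
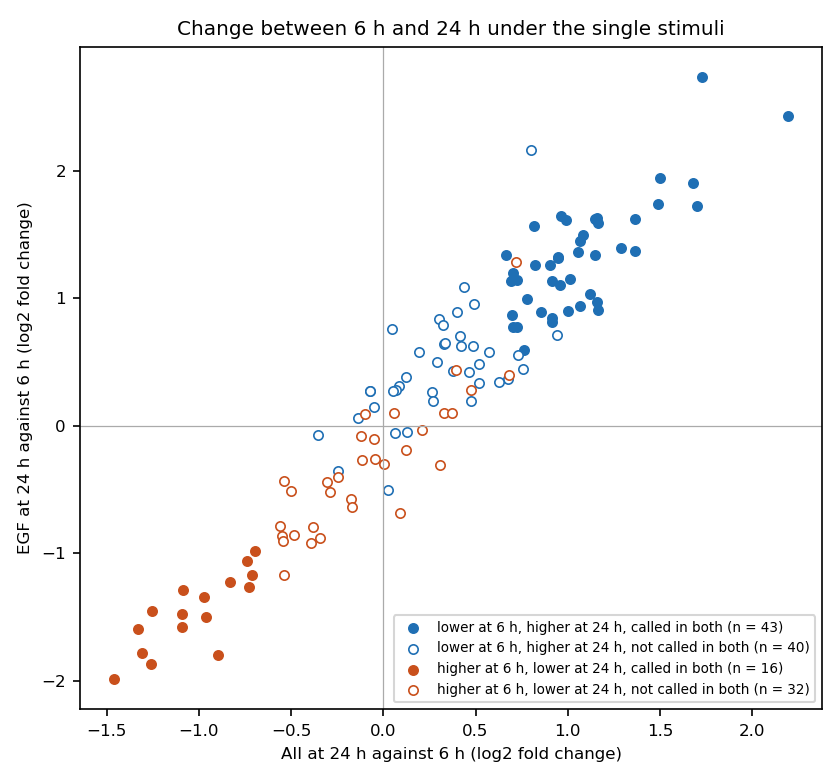
Log2 fold change from 6 h to 24 h (edgeR) under AII (x axis) and EGF (y axis) for the 83 down-then-up and the 48 up-then-down genes. Filled points were called under both stimuli: 43 down-then-up genes, which lie above 0 on both axes, and 16 up-then-down genes, which lie below 0 on both.

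EGF was compared with AII directly. At 6 h edgeR called 0 of 131 genes (0.114% of all tested genes), 26 had an unadjusted p under 0.05 (3007 of all 19337 tested genes), and DESeq2 called 1 (DEPP1). At 24 h edgeR called 0 (0%), 21 had an unadjusted p under 0.05 (1100 of all tested genes), and DESeq2 called 0. The medians at 24 h were 0.15 for down-then-up genes (74 of 83 higher under EGF) and -0.16 for up-then-down genes (42 of 48 lower). The change of this difference from 6 h to 24 h was called by edgeR in 0 genes (0.0672%), 30 had an unadjusted p under 0.05 (2115 of all tested genes), and DESeq2 called 0. Its median was 0.21 for down-then-up genes (60 of 83 above 0) and -0.31 for up-then-down genes (42 of 48 below 0), against -0.02 over the 10545 genes.

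These counts moved with the doubted libraries. Without the library labelled AII 6 h replicate 6, edgeR called 4 genes at 6 h, DEPP1 and PGPEP1 lower and PGBD5 and RNFT1 higher under EGF, while the calls over all tested genes went from 22 to 157. Without the 10 doubted libraries, when 132 of all tested genes were called, PGBD5 (1.12 ± 0.15, log2 ± SE) and PGPEP1 (-0.77 ± 0.17) were called at 6 h. The change of the difference was then called in PGBD5 (-1.35 ± 0.20), PRKAR1B (-1.0004 ± 0.17), RHBDL3 (-0.89 ± 0.17) and SYT11 (0.77 ± 0.16). PGBD5, PGPEP1, RHBDL3 and RNFT1 were named after their values were seen.

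Among the down-then-up genes, TXNIP (chr1:145992435-145996579) had the largest joint shift over time. In control at 6 h it was 60.7, 56.6, 68.8 and 50.8 CPM in the libraries of the rule and 195 and 179 CPM in replicates 1 and 2. Under AII+EGF at 6 h it was 20.9, 19, 21.2 and 23.4 CPM in the libraries of the rule and 29.5 and 50.0 CPM in replicates 4 and 6. All AII+EGF libraries lay below all control libraries at 6 h, replicate 6 by a small margin. At 24 h TXNIP was 81.4 to 199 CPM in control (median 187) and 141 to 388 CPM under AII+EGF (median 333). Replicate 6 was the lowest of each group, and without it these groups did not overlap.

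The single stimuli split at 6 h for TXNIP. Under EGF it was 29.7 to 37.1 CPM at 6 h (median 32.4), below all control libraries, and 130 to 349 CPM at 24 h (median 250). This was a rise of 2.74 ± 0.32 (log2 ± SE, edgeR adjusted p = 4.99e-09). Under AII it was 66.5 to 78.7 CPM at 6 h in 5 libraries and 22.4 CPM in replicate 6, and 118 to 295 CPM at 24 h (median 233). The rise was 1.73 ± 0.31 (edgeR adjusted p = 1.98e-05). The 6 h and 24 h libraries did not overlap under either stimulus.

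DEPP1 (chr10:44976128-44978809) was 20.3, 18.6, 15.4 and 11.8 CPM in the 6 h controls of the rule and 30.4 and 25.9 CPM in the others. Under AII+EGF at 6 h it was 5.88 to 7.09 CPM in 5 libraries and 15.2 CPM in replicate 6. Under EGF alone it was as low, 6.08 to 7.46 CPM (median 6.55), whereas under AII 5 libraries were at 16.1 to 22.6 CPM and replicate 6 was at 4.30 CPM. By 24 h it was 14.5 to 34.9 CPM in control (median 24.6) and 21.7 to 60 CPM under AII+EGF (median 43.5), and the groups overlapped. From 6 h to 24 h DEPP1 rose under EGF by 2.17 ± 0.29 (log2 ± SE, edgeR adjusted p = 1e-07), and its change under AII, 0.80 ± 0.28, did not pass (edgeR adjusted p = 0.0205), and without AII 24 h replicate 6 it was 0.94 and passed.

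FOXO4, itself a FOXO factor and named after its values were seen, had joint responses of -1.06 and 0.42. It was 11.8 to 27.2 CPM under AII+EGF at 6 h (median 14.8) and 27.1 to 40.5 CPM in control (median 30.4). It rose under EGF by 0.89 ± 0.12 (log2 ± SE, edgeR adjusted p = 9.29e-08). Of the 25 genes on a list of FOXO targets and TXNIP relatives, 2 were members. Under EGF 7 of 25 were called higher at 24 h and 0 lower, and under AII 3 and 0, with median changes of 0.44 and 0.16. For this and the lists below, the shares of all tested genes called higher and lower were 7.04% and 7.26% under EGF and 5.89% and 3.18% under AII.

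**Figure D4:**
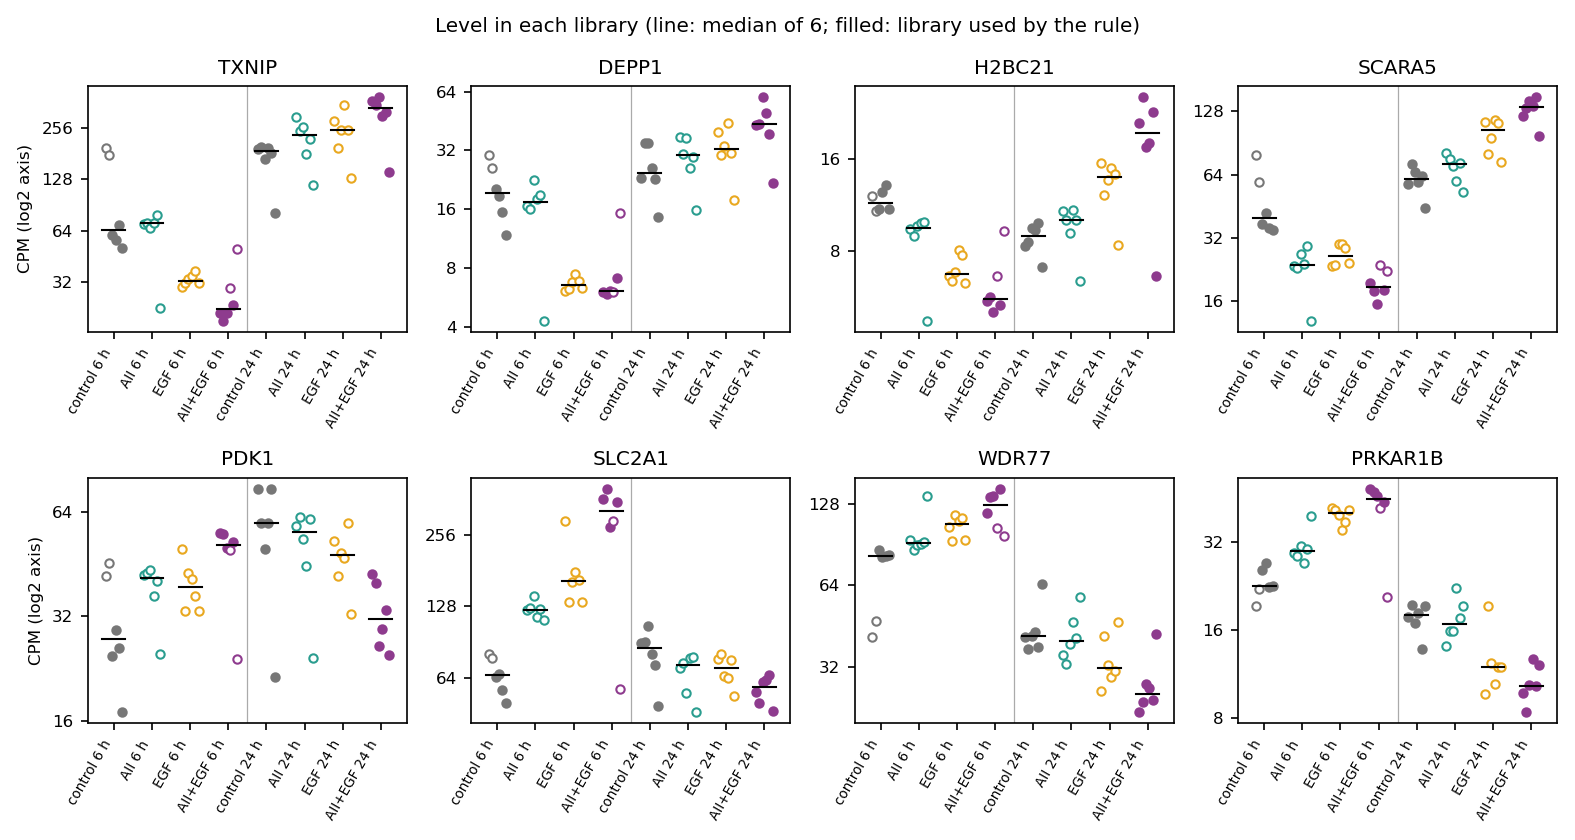
Level (CPM, log2 axis) of 8 genes in each of the 48 libraries (points), with the group median as a line and filled points for the libraries that the rule used. TXNIP, DEPP1, H2BC21 and SCARA5 have their lowest median under AII+EGF at 6 h and their highest under AII+EGF at 24 h, SLC2A1, WDR77 and PRKAR1B have their highest under AII+EGF at 6 h, and PDK1 has its lowest in control at 6 h and its highest in control at 24 h.

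Histone genes, whose products package DNA, held 4 members among 11 listed genes above the abundance minimum (36.4%), all down-then-up. H2BC21 (chr1:149884459-149886682) was 11, 12.5, 13.2 and 11 CPM in the 6 h controls of the rule and 5.53, 5.68, 5.07 and 5.34 CPM under AII+EGF. At 24 h it was 7.09 to 9.92 CPM in control (median 9). Under AII+EGF 5 libraries were at 17.5 to 25.4 CPM, and replicate 6, at 6.65 CPM, lay below all controls. In H2BC21 control fell between the times by 0.41 on the log2 scale while AII+EGF rose by 1.69. Under EGF it rose by 0.76 ± 0.20 (log2 ± SE, edgeR adjusted p = 0.00129), and without the 10 doubted libraries this was 0.63 and no longer called. Under AII the change was 0.05 ± 0.20 (edgeR adjusted p = 0.865).

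H2AC18 and H2AC19, near-identical copies of an H2A gene, had nearly equal values, and how reads were divided between them is uncertain. H2AC18 was 13.2 to 20.3 CPM in control at 6 h (median 17.5) and 7.44 to 13.1 CPM under AII+EGF (median 8.79). By 24 h it was 8.98 to 13.6 CPM (median 11.2) and 13.1 to 32.5 CPM (median 23.3). The groups were apart at 6 h, replicate 6 of AII+EGF just below the lowest control, and overlapped at 24 h. The change of H2AC18 over time was -0.07 ± 0.16 under AII (edgeR adjusted p = 0.75) and 0.27 ± 0.16 under EGF (edgeR adjusted p = 0.152).

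H1-2, a linker histone gene, was 15.5 to 24.5 CPM in control at 6 h (median 20.6) and 9.32 to 14.7 CPM under AII+EGF (median 12.6), without overlap. At 24 h it was 18.2 to 26.8 CPM (median 18.8) and 24.7 to 52.2 CPM (median 45.9), with overlap. It rose under EGF by 0.87 ± 0.19 (log2 ± SE, edgeR adjusted p = 0.000193) and under AII by 0.70 ± 0.19 (edgeR adjusted p = 0.00328), the latter no longer called without the 10 doubted libraries or without AII 6 h replicate 1 or 2 or AII 24 h replicate 3 (0.61, 0.64 and 0.49). Over the list, 4 of 17 tested histone genes were called higher and 1 lower under EGF, and 2 and 0 under AII, with medians of 0.27 and -0.20.

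SCARA5, a scavenger receptor that binds ferritin, ranked first among the down-then-up genes. It was 35 to 79.5 CPM in control at 6 h (median 39.7) and 15.5 to 23.6 CPM under AII+EGF (median 18.7). By 24 h it was 44.2 to 71.8 CPM (median 61.1) and 97.4 to 150 CPM (median 134). The groups did not overlap at either time, all libraries included. SCARA5 rose by 1.49 ± 0.18 under AII (log2 ± SE, edgeR adjusted p = 3.57e-08) and by 1.74 ± 0.18 under EGF (edgeR adjusted p = 4.83e-10).

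Other genes ranked high encode membrane proteins. STAB1, another scavenger receptor, was 2.703 to 5.74 CPM under AII+EGF at 6 h against 7.93 to 17.4 CPM in control, and 23 to 27.6 CPM against 10.1 to 19.6 CPM at 24 h. TRPM4, a calcium-activated cation channel, was 2.27 to 4.25 CPM against 4.68 to 11 CPM, and then 15.5 to 19.1 CPM against 7.21 to 11 CPM. SYT11, a synaptotagmin of vesicle traffic, was 15.7 to 22.2 CPM against 26.4 to 40.01 CPM, and then 47.4 to 59.9 CPM against 25.2 to 35.3 CPM. In all of these the AII+EGF and control libraries were apart at both times. STAB1 and TRPM4 rose under AII (1.29 and 1.06) and under EGF (1.39 and 1.45). SYT11 was called under EGF (1.09 ± 0.12), and under AII it missed only the 1.5-fold minimum (0.44 ± 0.12, edgeR adjusted p = 0.00239).

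TEF, a PAR bZIP factor under clock control, was 3.19 to 4.77 CPM under AII+EGF at 6 h (median 3.81) and 5.25 to 15 CPM in control (median 7.50). At 24 h it was 14.1 to 24 CPM (median 22.3) and 6.87 to 12.6 CPM (median 10.9), again without overlap. It rose by 0.96 ± 0.20 under AII (log2 ± SE, edgeR adjusted p = 0.00016) and by 1.64 ± 0.20 under EGF (edgeR adjusted p = 1.35e-08). TEF was the only member among 11 listed clock genes above the minimum. Of the 16 clock genes tested, 4 rose and 1 fell under EGF, and 2 rose and 1 fell under AII.

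HERPUD1, a component of ER-associated degradation, was 11.6 to 17.1 CPM under AII+EGF at 6 h and 19.8 to 35.6 CPM in control, and at 24 h 31.5 to 63.8 CPM and 28.4 to 32.9 CPM, with overlap only at 24 h. HERPUD1 rose under AII by 0.78 ± 0.15 and under EGF by 0.99 ± 0.14. It was the only member among 19 ER chaperone and stress genes, of which 10 fell and 2 rose under AII and 3 fell and 3 rose under EGF. CDT1, a licensing factor of DNA replication, was 59 to 77.9 CPM under AII+EGF at 6 h and 108 to 167 CPM in control, and its range at 24 h, 161 to 252 CPM, overlapped that of control, 100 to 220 CPM. CDT1 rose under EGF by 0.71 ± 0.17 and was the only member among 22 DNA replication genes, of which 5 fell and 1 rose under EGF and 3 fell under AII.

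Several down-then-up genes act in mitochondrial fuel use. CRAT, carnitine acetyltransferase, was 6.90 to 11.4 CPM under AII+EGF at 6 h (median 8.74) and 13.6 to 23.2 CPM in control (median 16.6). By 24 h it was 27.7 to 42.1 CPM (median 38.5) and 15 to 27.6 CPM (median 22.2). The CRAT libraries were apart at both times. It rose by 1.20 ± 0.17 under EGF (log2 ± SE, edgeR adjusted p = 2.66e-07) and by 0.70 ± 0.17 under AII (edgeR adjusted p = 0.00104), the latter 0.56 and no longer called without AII 6 h replicate 6.

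ACADS, the short-chain acyl-CoA dehydrogenase, was 5.62 to 10.3 CPM under AII+EGF at 6 h and 9 to 21.3 CPM in control, with overlap, and 29.4 to 37.8 CPM and 12.5 to 26.1 CPM at 24 h, without. It rose by 1.16 ± 0.19 under AII and 0.97 ± 0.18 under EGF. SDHAF4, an assembly factor of succinate dehydrogenase, rose by 1.70 ± 0.20 under AII (edgeR adjusted p = 4.04e-08) and by 1.72 ± 0.20 under EGF (edgeR adjusted p = 5.82e-09). CRAT and ACADS were the 2 members among 20 listed genes of fatty acid oxidation above the minimum. Of 21 tested, 2 rose and 0 fell under each stimulus, with medians of 0.06 and 0.04.

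Of the genes with the largest called changes over time, CORO6, a coronin that binds actin, rose by 2.19 ± 0.42 under AII and by 2.43 ± 0.42 under EGF. It had the deepest joint response of the down-then-up genes at 6 h (-1.92), with 0.656 to 11.8 CPM under AII+EGF and 4.92 to 22.7 CPM in control, which overlapped. CDK18, a cyclin-dependent kinase, rose by 1.68 ± 0.22 and 1.91 ± 0.22, and ZC3H6, a zinc finger protein, by 1.501 ± 0.26 and 1.94 ± 0.26. In control, too, CDK18 went from 5.64 to 23.6 CPM at 6 h (median 8) to 13.4 to 28.6 CPM at 24 h (median 23.3).

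The up-then-down genes included 7 of 34 genes on a list of HIF targets above the minimum (20.6%), a list put together after their values were seen. SLC2A1 (chr1:42925353-42958868) was 64.9, 66.8, 57 and 50.3 CPM in the 6 h controls of the rule and 80.4 and 78 CPM in the others. Under AII+EGF it was 360, 399, 275 and 352 CPM in the libraries of the rule, 293 CPM in replicate 4 and 57.4 CPM in replicate 6. Replicate 6 thus stood within the control range and the others far above it. Under AII it was 112 to 142 CPM (median 124) and under EGF 133 to 292 CPM (median 163), each without overlap with control. EGF replicate 1, nearly identical to an AII+EGF library, was the highest of its group.

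At 24 h SLC2A1 was 46.3 to 66 CPM under AII+EGF (median 58.6) and 49.1 to 106 CPM in control (median 85.5), where replicate 6 was the lowest in each group and the other controls lay above all AII+EGF libraries. It fell by 0.96 ± 0.24 on the log2 scale under AII (edgeR adjusted p = 0.00129) and, under EGF, fell by 1.498 ± 0.24 (edgeR adjusted p = 2.22e-06). The AII and EGF libraries of the 2 times did not overlap.

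PDK1, a kinase that inhibits pyruvate dehydrogenase, was 24.7, 29.2, 25.9 and 17 CPM in the 6 h controls of the rule and 41.9 and 45.5 CPM in the others. Under AII+EGF it was 49.9 to 55.6 CPM in 5 libraries and 24.1 CPM in replicate 6. At 24 h control was at 50.0 to 74.6 CPM in 5 libraries and 21.5 CPM in replicate 6, and AII+EGF at 24.7 to 42.5 CPM (median 31.4). Control rose by 1.21 on the log2 scale while AII+EGF fell by 0.70. Neither AII (0.33 ± 0.23, edgeR adjusted p = 0.257) nor EGF (0.10 ± 0.23, edgeR adjusted p = 0.727) gave a called change.

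BNIP3 had the same form, with a control shift of 1.06 and a shift of -0.41 under AII+EGF. It was 49.5 to 98.7 CPM in control at 6 h (median 65.0) and 55.6 to 116 CPM under AII+EGF (median 105), and at 24 h 55.7 to 153 CPM (median 136) and 69.5 to 91.4 CPM (median 81.5), with overlap at both times. KDM3A, a histone demethylase, was 64.5 to 91.4 CPM and 76.8 to 151 CPM at 6 h, and 65.6 to 117 CPM and 57 to 80.1 CPM at 24 h. PLOD2, a collagen lysyl hydroxylase, and STC1, the secreted stanniocalcin, had control shifts of 0.90 and 1.98. In the main fit none of BNIP3, KDM3A, PLOD2 and STC1 was called over time under AII or EGF. There STC1 rose under EGF by 1.28 ± 0.45 on the log2 scale (edgeR adjusted p = 0.0169). STC1 was called higher under EGF without EGF 24 h replicate 6 (1.46) and with only the AII and EGF groups in the fit (1.26). Without the near-identical pairs and the last run of titles, STC1 was called higher under both EGF (1.58) and AII (0.82). TMEM45A, a transmembrane protein, was called higher under AII (0.68 ± 0.20, edgeR adjusted p = 0.0052), a call lost without any 1 of AII 6 h replicates 1, 2 and 6 and AII 24 h replicates 1, 3 and 5 (0.54 to 0.67). Of 38 tested genes on the list, 3 rose and 1 fell under AII and 3 rose and 2 fell under EGF.

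HAS2, a hyaluronan synthase, was not on the list and moved alike. It was 10.8 to 20.1 CPM in control at 6 h (median 15.7) and 16.4 to 35.2 CPM under AII+EGF (median 29.3), and 16.4 to 34.8 CPM (median 27.6) and 14.3 to 16.8 CPM (median 16) at 24 h. Its control shift was 0.86 and its shift under AII+EGF -1.02. Over time it changed by 0.21 ± 0.17 under AII (edgeR adjusted p = 0.325) and by -0.04 ± 0.17 under EGF (edgeR adjusted p = 0.869), a value whose sign depended on the libraries used.

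A list headed ribosome biogenesis gave 7 up-then-down genes among 44 listed genes above the minimum (15.9%), and it too was put together after their values were seen. The 7 include WDR77 and WDR4, whose roles given below are not in the making of ribosomes. WDR77 (chr1:111439890-111449256), a subunit of the PRMT5 methylosome, was 81.6 to 86.5 CPM in the 6 h controls of the rule and 41.3 and 47.3 CPM in the others. Under AII+EGF it was 97.6 to 146 CPM at 6 h (median 127), above all controls. At 24 h it was 37.1 to 64.6 CPM in control (median 41.4) and 21.7 to 42.1 CPM under AII+EGF (median 25.3), where replicate 6 was the highest of each group. It fell by 1.31 ± 0.18 on the log2 scale under AII (edgeR adjusted p = 4.16e-07) and, under EGF, fell by 1.78 ± 0.18 (edgeR adjusted p = 5.64e-10), and control shifted by -0.91.

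WDR4, which acts in tRNA methylation, the 40S export factor LTV1, PAK1IP1, the helicase DHX37 and GPATCH4 were called lower under both stimuli, and RRP15 under EGF. Their changes ranged from -1.09 (WDR4) to -0.55 (RRP15) under AII and from -1.58 (GPATCH4) to -0.90 (RRP15) under EGF. Under AII, RRP15 missed only the 1.5-fold minimum (edgeR adjusted p = 0.000301). Without AII 6 h replicate 6, LTV1 (-0.52) and PAK1IP1 (-0.44) were no longer called under AII. In control all of these also shifted down, from -0.30 in RRP15 to -0.86 in WDR4. Of 45 tested genes on the list, 19 fell and 0 rose under AII and 34 fell and 0 rose under EGF, with medians of -0.52 and -0.74.

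PRKAR1B, a regulatory subunit of protein kinase A, was 19.4 to 27.3 CPM in control at 6 h (median 22.6). Under AII+EGF 5 libraries were at 41.8 to 48.8 CPM and replicate 6 was at 20.9 CPM. By 24 h it was 13.8 to 19.6 CPM in control (median 18.1) and 8.41 to 12.8 CPM under AII+EGF (median 10.3), without overlap. It fell by 0.90 ± 0.16 on the log2 scale under AII (edgeR adjusted p = 1.85e-05) and, under EGF, fell by 1.80 ± 0.16 (edgeR adjusted p = 7.94e-11).

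SLC27A4, a fatty acid transport protein, fell by 1.46 ± 0.19 on the log2 scale under AII (edgeR adjusted p = 1.05e-07) and, under EGF, fell by 1.99 ± 0.19 (edgeR adjusted p = 2.24e-10). PGBD5, a transposase-derived gene, had the largest joint response at 6 h (2.71), with 9.83 to 48.9 CPM under AII+EGF (median 45.4) and 6.05 to 7.91 CPM in control (median 7.39). At 24 h it was 3.92 to 6.53 CPM and 7.24 to 9.22 CPM, so that the PGBD5 libraries were apart at both times. Its fall under AII (-1.26 ± 0.32, edgeR adjusted p = 0.00132) was -0.44 and no longer called without the library labelled AII 6 h replicate 6, at 54.2 CPM. Under EGF it fell by 1.87 ± 0.32 on the log2 scale (edgeR adjusted p = 5.34e-06).

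ZNF804A, a zinc finger gene, ranked first among the up-then-down genes. It was 7.57 to 8.63 CPM in control at 6 h (median 7.89) and 11.8 to 22.1 CPM under AII+EGF (median 16), without overlap, and 5.40 to 11.7 CPM (median 8.13) and 2.18 to 7.33 CPM (median 4.28) at 24 h, with overlap. It fell under EGF by 0.80 ± 0.20 on the log2 scale (edgeR adjusted p = 0.000919), and its change under AII was -0.38 ± 0.20 (edgeR adjusted p = 0.122). ZNF26, ZNF37A, ZNF827 and ZNF841 were the other members among 354 ZNF genes above the minimum (1.41%, all up-then-down), and none of these 4 was called over time, although ZNF26 was called lower under EGF (-0.66 to -0.59) without any 1 of EGF 6 h replicates 3, 4 and 5 and EGF 24 h replicates 2 and 6. GPR137C, a lysosomal membrane protein, had joint responses of 0.81 and -0.86 and changes over time of 0.31 ± 0.24 under AII and -0.31 ± 0.24 under EGF, neither of which passed. TIMM23B, a close copy of the mitochondrial import gene TIMM23, had joint responses of 0.93 and -0.66, and its counts are uncertain for that reason.

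The remaining lists held no member: lysosome (30 genes above the minimum), ERK early genes and feedback (9), mitosis (19) and cholesterol and fatty acid synthesis (20). Over time, 3 of 30 lysosome genes rose and 3 fell under AII, and 3 and 2 under EGF. Of 22 ERK genes 4 fell under AII and 9 under EGF, of 20 mitosis genes 3 and 4, and of 21 cholesterol and fatty acid genes 5 and 9, and none of these rose. The shares of all tested genes given with the first list apply here too.

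The members were less abundant than the genes they were drawn from. The median of their mean levels was 17 CPM for the down-then-up and 25.6 CPM for the up-then-down genes, against 41.7 CPM for the 10545 genes. Of the down-then-up genes 12 lay on chromosome 19 (14.5%, against 6.70% of the 10545 genes) and 11 on chromosome 17 (13.3%, against 6.05%). These are descriptions of a chosen set.

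At the edge of the rule, the glutathione peroxidase gene GPX4 (-0.52 and 0.40) and PRXL2B (-0.61 and 0.40) were just inside. GALNT10 (0.3997 and -0.67) and CXXC4 (0.398 and -0.67) were just outside. GPX4 ranged from 172 to 210 CPM under AII+EGF and from 219 to 340 CPM in control at 6 h, and from 246 to 411 CPM and 190 to 400 CPM at 24 h, where the groups overlapped. Neither GPX4 nor PRXL2B was called over time under AII or EGF. PRXL2B missed only the 1.5-fold minimum, with rises of 0.52 ± 0.11 under AII (log2 ± SE, edgeR adjusted p = 0.000211) and 0.34 ± 0.11 under EGF (edgeR adjusted p = 0.00872).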

How the data were processed

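Counts per gene were made by the authors from paired-end poly(A) reads with HISAT2 2.1.0 on hg38 and featureCounts with an Ensembl annotation, and were deposited as whole-number counts. Strandedness and the treatment of reads with several matches are not given in the sources used here. The labels give 6 libraries per group, more than the study's figure legends give per condition, and all were used. CPM were computed here from library totals. The members and lists were chosen with earlier results of these data known. The main fit was edgeR 4.0.16 (R 4.3.3) with TMM factors, filterByExpr (19337 genes kept) and the quasi-likelihood test over all 48 libraries, with Benjamini-Hochberg adjustment over all genes tested. DESeq2 1.42.0 was an alternative. On simulated data with 200 changed genes of 19337, the fit recovered 191 for EGF against AII at 6 h, 158 for the change of that difference and 192 for EGF over time. The genes named were the first 12 and 8 of each class by the smaller joint response, listed members, up to 6 per contrast with the largest called change, and the genes beside the minimum. Others are marked as chosen after their values were seen. Promoters and gene positions come from RefSeq (GRCh38.p14), with positions for 129 of 131 genes. Fold changes from means of CPM use a pseudocount of 0.5 and understate those of low genes.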

Additional observations from a re-analysis of the deposited data

Results flagged for a closer look

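In 160 groups of 6 libraries (the 20 genes ranked first, in 8 groups), 23 held a library whose gap to the next was above the critical value of Dixon's test. Chance flags about 1 in 20 groups. Of these libraries, 10 were the library labelled AII 6 h replicate 6. It was the lowest of its group for H2BC21 (4.77 CPM, others 9 to 9.96), TXNIP (22.4 CPM, others 66.5 to 78.7), CRAT (6.53 CPM, others 13.2 to 15.8), DEPP1 (4.30 CPM, others 16.1 to 22.6), HERPUD1 (10.4 CPM, others 16.7 to 19.3), PDK1 (24.9 CPM, others 36.6 to 43.5) and STC1 (3.83 CPM, others 15 to 21). It was the highest for PRKAR1B (39.2 CPM, others 27.1 to 31.2), WDR77 (137 CPM, others 86.9 to 94.5) and TIMM23B (21.6 CPM, others 10.8 to 14.5). The library labelled AII+EGF 6 h replicate 6 was the highest for TXNIP (50.0 CPM, others 19 to 29.5) and DEPP1 (15.2 CPM, others 5.88 to 7.09) and the lowest for PDK1 (24.1 CPM, others 49.9 to 55.6) and PRKAR1B (20.9 CPM, others 41.8 to 48.8).

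At 24 h, control replicate 6 was the lowest for TXNIP (81.4 CPM, others 168 to 199) and STC1 (3.01 CPM, others 30.5 to 42) and the highest for WDR77 (64.6 CPM, others 37.1 to 42.9). AII+EGF 24 h replicate 6 was the lowest for TXNIP (141 CPM, others 301 to 388), TEF (14.1 CPM, others 20.6 to 24) and STC1 (4.89 CPM, others 18.1 to 25.2) and the highest for WDR77 (42.1 CPM, others 21.7 to 27.5). EGF 24 h replicate 2, nearly identical to a control 6 h library, was the highest for PRKAR1B (19.3 CPM, others 9.71 to 12.3), and EGF 6 h replicate 1, nearly identical to an AII+EGF 6 h library, was the highest for STC1 (15.2 CPM, others 9.17 to 10.6).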

How the results depend on the processing

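The rule found 38 genes with a minimum of log2(1.5) and 248 with no abundance minimum. With TMM factors it found 141 genes, 116 of them among the 131. With all 6 libraries of each 6 h group it found 174, 114 of them among the 131. Leaving out 1 replicate gave 110 (without control 24 h replicate 5) to 187 (without control 24 h replicate 3). For EGF against AII at 6 h, the calls among the 131 genes and among all tested genes were 2 and 132 without the 10 doubted libraries, 6 and 177 without the near-identical pairs and the last run of 8 titles, 1 and 79 with DESeq2, 1 and 158 at an adjusted p under 0.05 with no fold minimum, 1 and 43 with the run of 8 titles as a term of the model, and 14 of all genes with the near-identical EGF 6 h libraries merged, the last 2 settings being chosen after seeing the data. Leaving out 1 replicate gave 0 to 4 and 13 to 157, the highest without AII 6 h replicate 6. At 24 h they were 0 and 5 without the doubted libraries and 3 and 29 without the pairs and last run, and among all genes 1 with no filter on low counts, 3 with DESeq2 and 1 at the looser threshold, with 0 to 0 and 0 to 3 on leaving out 1 replicate. For the change of the difference they were 4 and 47, 9 and 104, 1 and 31 with the run term, and among all genes 23 with DESeq2 and 26 at the looser threshold, with 0 to 1 and 10 to 24. Over time the looser threshold gave 5620 genes under AII and 6829 under EGF, and leaving out 1 replicate gave 56 to 67 and 1401 to 2020 under AII and 78 to 85 and 2515 to 3018 under EGF. The cause was not tested. In the order without the doubted libraries, without the pairs and last run, and with the run term, the change of H2BC21 under AII was -0.14, -0.029 and -0.27, and that of HAS2 under EGF 0.0040, 0.15 and 0.053. H2BC21 was also at -0.00019, -0.00065 and -0.078 without AII 24 h replicate 3, AII 24 h replicate 4 and AII 6 h replicate 6, and HAS2 at 0.079, 0.046 and -0.083 without EGF 6 h replicate 1, EGF 24 h replicate 6 and EGF 6 h replicate 6. H2AC18 and H2AC19 under AII were each at 0.0054 without AII 6 h replicate 5 and -0.15 without AII 6 h replicate 6. Under AII, ZNF804A was at 0.0029 with the run term, and ZNF26 at 0.0027 without the doubted libraries and 0.012 and -0.26 without AII 6 h replicates 6 and 3. GPX4 under AII was at -0.0015 without the doubted libraries, -0.095 with the run term, and -0.0026, -0.029, 0.17 and -0.090 without AII 6 h replicates 1, 2 and 3 and AII 24 h replicate 3. Under EGF it was 0.0046 without the pairs and last run and 0.0091 without EGF 24 h replicate 6. Over the changes with time of 47 named genes under both stimuli and the EGF against AII values of 7, 2246 alternative values kept direction and side of the threshold, 56 newly passed it, 27 no longer passed and 23 changed sign. Libraries were not paired in the main fit, because the labels give no replicate numbers and do not say what a run of 8 titles is. In the fit with the run term, the changes over time rest on the 2 runs that hold both times.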
